A study of Mus musculus with 24 samples.

Results

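Transcripts of 10 genes of Notch signaling and of endothelial tip cells were followed in mouse prostate tumors given interleukin-27 (IL-27) gene therapy, the tyrosine kinase inhibitor cabozantinib (cabo), or both. The genes were Dll4, Jag1, Notch1, Notch4, Hey1, Heyl, Hes1, Esm1, Apln and Aplnr, and they are 10 of the 55401 gene rows in the counts. Each was found by the Ensembl identifier that carries its symbol in GENCODE M21. The genes were chosen by their known roles and by the fold changes already seen on day 14 in tumors given cabo, so every comparison that uses the day 14 control, cabo or IL-27+cabo tumors is a description of these genes and carries no test of them. The tests of these genes are those among the EOS tumors, between EOS and day 14 under IL-27 alone, and in the subcutaneous tumors, none of which used those day 14 groups.

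RNA was sequenced from 24 tumors in 10 groups, all from male C57/BL6 mice of 8 to 10 weeks of age. The tumor cells were TC2Ras, a line made from TRAMP-C2 mouse prostate adenocarcinoma cells by lentiviral transfer that included activated H-Ras. For the subcutaneous tumors, 300000 TC2Ras cells were implanted, and 2 tumors from mice given the empty vector (control) and 2 from mice given the IL-27 vector were taken after 1 week. For the intratibial tumors, 100000 cells of the luciferase-expressing form of the line, TC2Ras-Luc, were placed in the tibia. These mice received the empty vector with the vehicle polyvinylpyrrolidone (control), the IL-27 vector with vehicle (IL-27), the empty vector with cabo (cabo), or both agents (IL-27+cabo). All vectors were delivered to muscle by sonoporation at 10 µg per muscle, and cabo was given by mouth at 30 mg/kg each day for 2 weeks in 15% vehicle. Tumors of 3 mice per group were taken on day 14 (D14), and tumors of 2 mice per group were sequenced from the end of the study (EOS), when mice had reached the ethical endpoint. EOS had no fixed day and came after the 2 weeks of cabo. Later time and the end of dosing therefore cannot be told apart at EOS. The labels number the intratibial mice. They do not say whether the 2 subcutaneous tumors of a group came from separate mice, so the spread between them may be technical.

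Depth ran from 63729005 to 83782258 gene counts per tumor. Levels are given as CPM, counts relative to library size, scaled by TMM, edgeR's trimmed-mean normalization, done separately for the 4 subcutaneous and the 20 intratibial tumors. The tumor line's markers Krt8 and Hras were present in every group, and Epcam, an epithelial surface protein, was at 0.0952 to 0.238 CPM in the subcutaneous control tumors. Mouse 20 of the D14 IL-27+cabo group stood apart, with a Pearson's r across genes of 0.908 to both other tumors of its group, which had an r of 0.976 to each other. The mean log2 CPM of 14 skeletal muscle genes also differed between groups. It was -1.84 to 2.68 in D14 control tumors, 0.41 to 6.68 in D14 IL-27 tumors, 5.52 to 6.07 in D14 cabo tumors and 5.78 to 7.96 in D14 IL-27+cabo tumors. At EOS it was -1.97 to -0.42 in the 4 tumors without cabo and 1.24 to 5.10 in the 4 tumors of cabo-treated mice.

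Notch receptors sit in the membrane and are activated by ligands on a neighbouring cell, after which the cleaved intracellular domain joins the DNA-binding protein RBPJ in the nucleus and switches on repressors of the Hes and Hey families. In a growing vessel, vascular endothelial growth factor (VEGF) acting on its receptor Kdr raises Dll4 in the leading tip cell, and Dll4 activates Notch in the trailing stalk cells, which keeps them from becoming tip cells themselves. Tip cells also express Esm1 and Apln, and cabozantinib inhibits the VEGF receptors among other kinases.

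The sequences just upstream of Dll4 and Esm1 are shown because these were the members with the lowest D14 levels relative to control in both groups given cabo. Each run is the 250 bases before the RefSeq gene start on GRCm38.p6, 5′ to 3′ on the strand of the gene, and capitals mark GGAA or its reverse complement TTCC, the core of sites bound by ETS factors such as the endothelial regulator Erg. The Dll4 window is at chr2:119325534-119325783 on the plus strand and the Esm1 window at chr13:113209409-113209658 on the plus strand.
Dll4: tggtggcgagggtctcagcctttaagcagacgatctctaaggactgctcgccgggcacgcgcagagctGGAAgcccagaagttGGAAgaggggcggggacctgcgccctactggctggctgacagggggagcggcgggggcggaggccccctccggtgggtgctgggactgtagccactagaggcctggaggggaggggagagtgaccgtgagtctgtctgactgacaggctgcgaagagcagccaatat
Esm1: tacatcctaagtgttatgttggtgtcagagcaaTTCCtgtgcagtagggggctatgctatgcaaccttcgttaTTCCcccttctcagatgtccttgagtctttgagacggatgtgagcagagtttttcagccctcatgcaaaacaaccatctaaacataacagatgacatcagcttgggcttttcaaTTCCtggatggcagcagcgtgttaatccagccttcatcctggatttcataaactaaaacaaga
The Dll4 window held 2 such cores at a GC content of 65.6%, and the Esm1 window held 3 at 44.0%. The core is short and common, and 93.4% of the 32851 RefSeq windows of this length held it on either strand, with a median of 3 matches. A longer string, TGGGAA, which contains GGAA and is the core bound by RBPJ, was in 21.6% of all windows on either strand. It was in none of the windows of the 6 members with a RefSeq entry here, Dll4, Jag1, Notch1, Notch4, Esm1 and Apln, which says only that those letters were not in these 250 bases. Hey1, Heyl, Hes1 and Aplnr had no entry in the promoter table.

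In D14 control tumors Apln, the secreted peptide ligand of the apelin receptor, had the highest level per length of the 10 genes, at 26.3 ± 3.75 RPKM (CPM per kilobase of exon, SD, n = 3). Jag1, a Notch ligand of vessels and many other cells, was at 5.46 ± 0.566 RPKM, and Hes1, a repressor that many cell types express, was at 4.83 ± 0.299 RPKM. Esm1, the secreted proteoglycan endocan, was at 4.29 ± 0.186 RPKM and Dll4, the Notch ligand of tip cells and arteries, at 3.22 ± 0.173 RPKM. The receptors Notch4, largely endothelial, and Notch1, of broad expression, were at 3.32 ± 0.928 and 2.33 ± 0.567 RPKM. The Notch targets Hey1 and Heyl were lowest, at 0.943 ± 0.130 and 0.776 ± 0.357 RPKM. Aplnr, the receptor for apelin, had the largest SD relative to its mean, at 2.25 ± 1.78 RPKM.

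**Figure D1:**
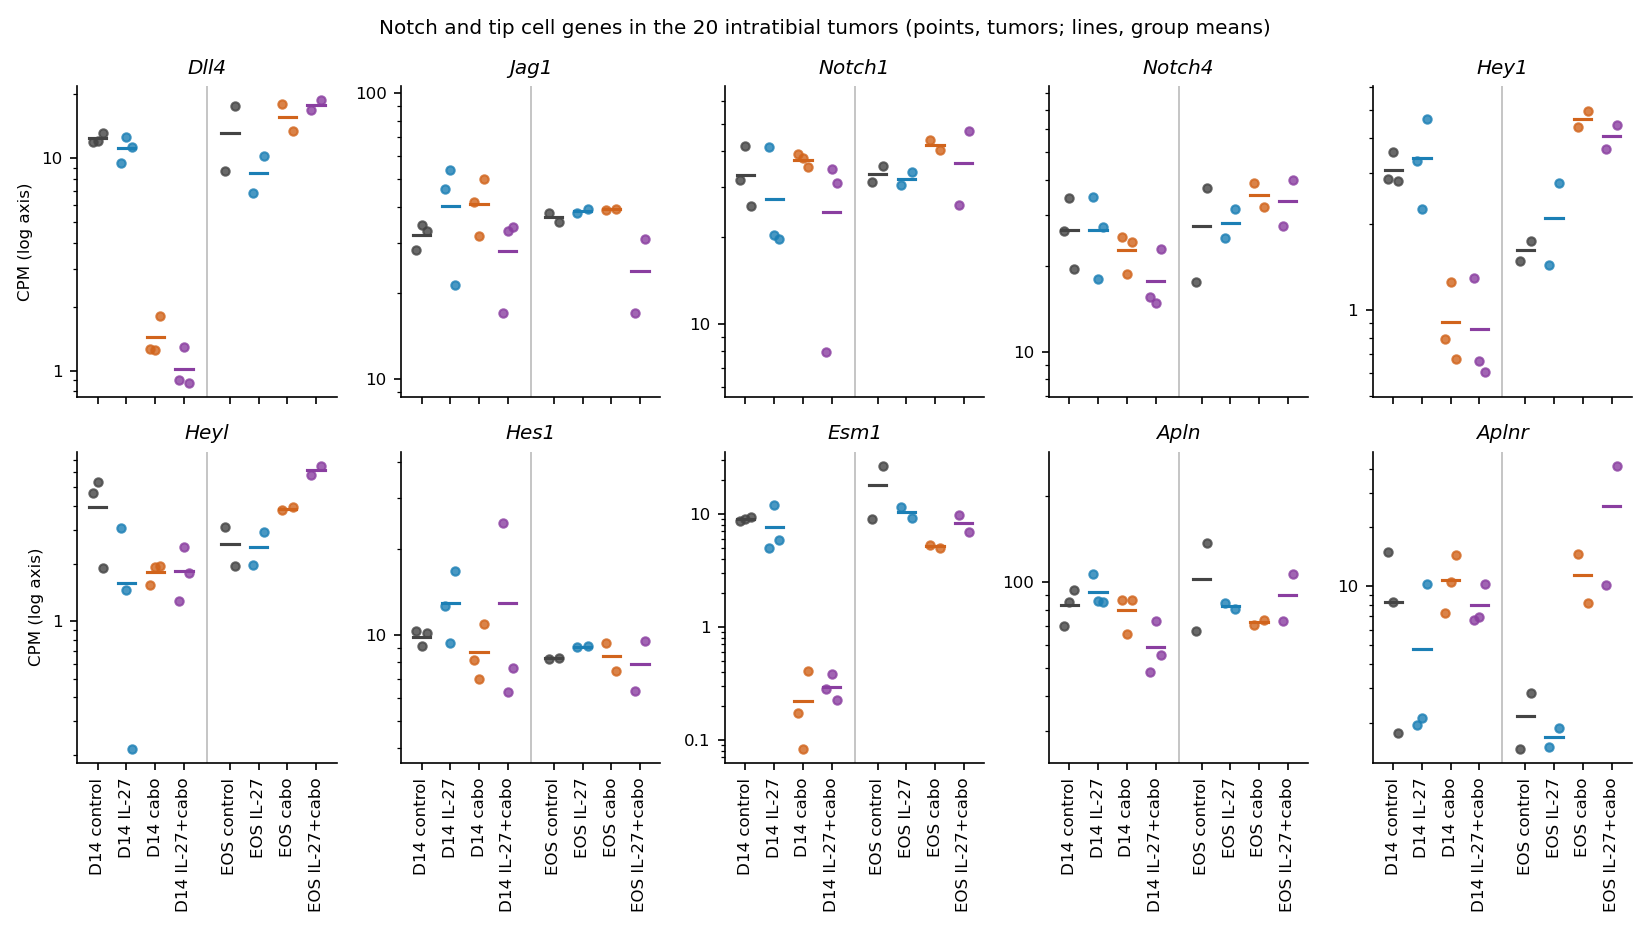
Level of each of the 10 genes in every tumor, in TMM-scaled CPM on a log axis, by group; each point is 1 tumor and each line a group mean. Dll4, Esm1 and Hey1 were low in all 6 day 14 tumors given cabo, and Dll4 lay at 13.4 to 18.8 CPM in the 4 EOS tumors of cabo-treated mice.

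On day 14, Dll4, Esm1 and Hey1 were lower in cabo tumors than in control tumors, while the receptors, Jag1, Hes1, Apln and Aplnr overlapped between the groups. Dll4 (ENSMUSG00000027314, GRCm38 chr2:119325784-119335962) was at 11.99, 12.07 and 13.18 CPM in the control tumors of mice 3, 5 and 7 and at 1.26, 1.25 and 1.81 CPM in the cabo tumors of mice 21, 25 and 27. Every cabo tumor lay far below every control tumor. The fitted log2 fold change was -3.13 (SE 0.20), a level 8.73-fold lower. Reads of Dll4 could also stem from Gm14207, an overlapping gene on the opposite strand, since the strand setting of the counting is not given in the sources used here, and those of Notch1 from 0610009E02Rik and Gm13568 in the same way.

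Esm1 (ENSMUSG00000042379, chr13:113209659-113218098) was at 8.58, 9.03 and 9.36 CPM in the control tumors and at 0.172, 0.0837 and 0.408 CPM in the cabo tumors. The cabo values rested on 6 to 28 counts per tumor, so the fitted log2 fold change of -5.36 (SE 0.48), 41.1-fold lower, was less precise than that of Dll4, and it was -6.15 without mouse 27 and -4.97 without mouse 25. Hey1 (ENSMUSG00000040289, chr3:8663359-8667256), a repressor switched on by Notch in endothelium, was at 2.85, 3.57 and 2.81 CPM in control and at 0.790, 1.25 and 0.670 CPM in cabo tumors. These groups did not overlap either, and the log2 fold change was -1.79 (SE 0.30), 3.45-fold lower. Its relative Heyl, which is also expressed in vascular smooth muscle, was at 4.67, 5.34 and 1.90 CPM in control and at 1.55, 1.91 and 1.95 CPM in cabo tumors. The Heyl groups overlapped because of the low control tumor of mouse 7, at a log2 fold change of -1.16 (SE 0.37).

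The log2 fold changes of the other 6 members ran from -0.26 for Notch4 to 0.35 for Aplnr, whose SE was 0.62 and whose value was 1.07 without the control tumor of mouse 3 and -0.13 without that of mouse 7. Apln was at 70.3 to 93.7 CPM in control and 65.8 to 86.7 CPM in cabo tumors, a log2 fold change of -0.08 (SE 0.15) that set it apart from Esm1. Notch1 was at 25.8 to 41.8 CPM in control and 35.1 to 39.2 CPM in cabo tumors, and Jag1 at 28.2 to 34.5 and 31.6 to 50.0 CPM.

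Of the 10 members, 3 had an edgeR adjusted p under 0.05 in this comparison, all lower. Of the 18627 genes tested, 1.89% had one in either direction and 0.693% were lower, and the 3 members with no overlap stood beside 11.9% of all genes that were lower with no overlap. Since the members were chosen on this contrast, nothing is read from these counts. The median log2 fold change was -0.23 over the 10 members and -0.008 over all genes tested. In bulk tumor RNA, fewer cells of a type and less RNA per cell cannot be told apart.

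Genes expressed by endothelium in general were also lower in the D14 cabo tumors, by less than Dll4 and Esm1. Of 18 pan-endothelial markers, 17 had a negative log2 fold change and 5 fell by edgeR's test, with a median of -1.12. The calls were 2 without mouse 21 or mouse 27 and 12 by DESeq2. Among them were Emcn, an endothelial sialomucin, at -2.70 (SE 0.24, edgeR adjusted p = 0.00314), and Cldn5, a tight junction protein, at -2.80 (SE 0.26, edgeR adjusted p = 0.00331). The mean log2 CPM of the 18 markers was 3.79 ± 0.32 (SD, n = 3) in control and 2.82 ± 0.21 in cabo tumors, and the exact two-sided permutation test gave p = 0.1, its minimum with 3 tumors a group. Dll4 minus this mean was -0.50 to 0.26 in control and -2.69 to -1.89 in cabo tumors, and Esm1 minus this mean was -0.91 to -0.23 and -6.21 to -3.96. Hey1 minus this mean was -2.29 to -1.96 and -3.28 to -2.69. All 3 genes were thus lower relative to the endothelial markers as well. Notch4 minus this mean was 0.82 to 1.01 in control and 1.18 to 2.01 in cabo tumors.

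**Figure D2:**
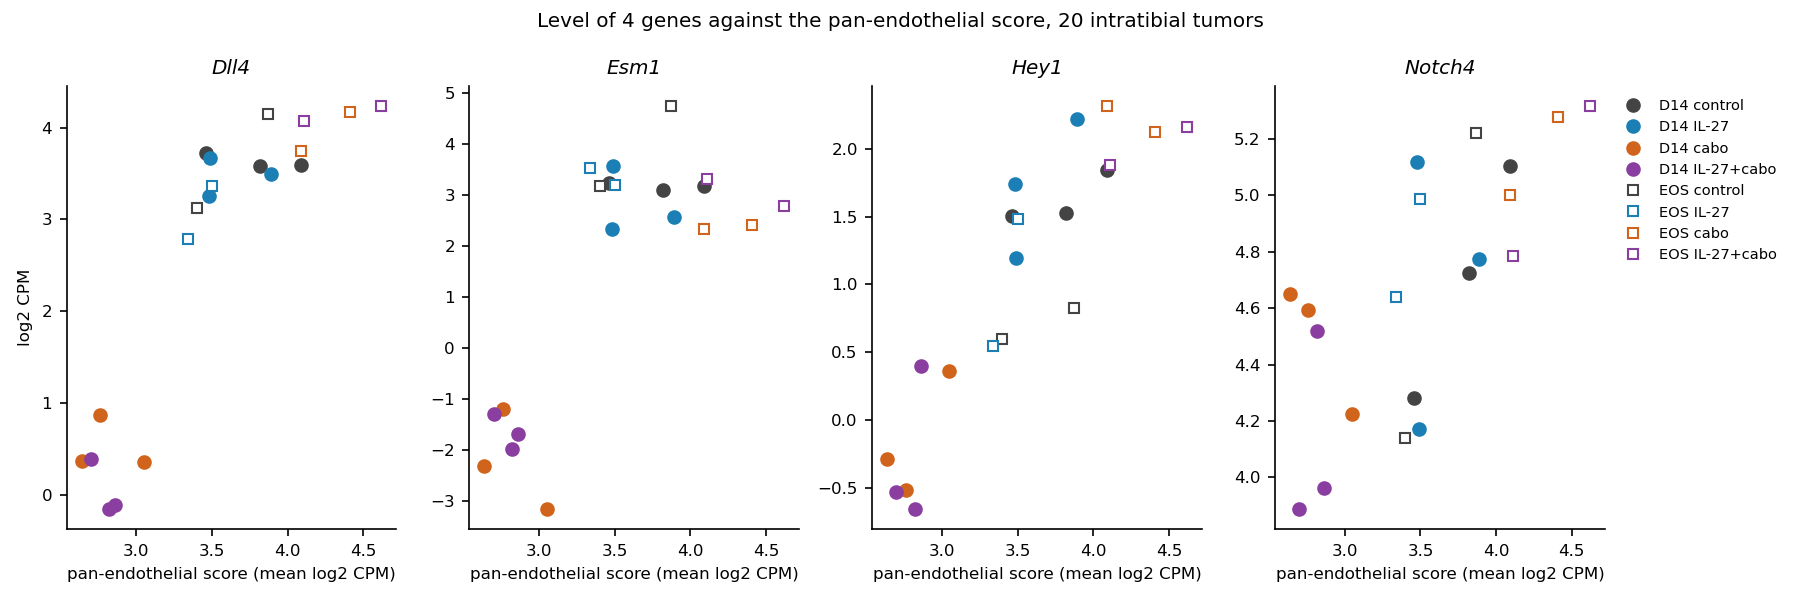
Log2 CPM of Dll4, Esm1, Hey1 and Notch4 against the mean log2 CPM of 18 pan-endothelial markers in the 20 intratibial tumors; circles are day 14 and open squares EOS tumors, and colors are groups. The day 14 cabo and IL-27+cabo tumors, at 2.64 to 3.05 on the horizontal axis, lie below the other tumors for Dll4 and Esm1, and Notch4 shows no such step.

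Of 43 other genes of the Notch pathway, 39 were tested, of which 1 rose and 1 fell, with 10 at an unadjusted p under 0.05 and a median log2 fold change of 0.09. Without mouse 21, 27, 3 or 7 there was 1 call, and DESeq2 made 4. Neurl1a, a ubiquitin ligase that acts on Notch ligands, was at 0.915 to 1.24 CPM in control and 5.13 to 5.87 CPM in cabo tumors (log2 fold change 2.38, SE 0.21, edgeR adjusted p = 0.00314). Dtx1, a ubiquitin ligase that binds Notch, was at 1.60 to 2.26 and 0.321 to 0.628 CPM (log2 fold change -2.17, SE 0.35, edgeR adjusted p = 0.0286). The skeletal muscle score given above differed between the same groups as Neurl1a, and its part in that result was not tested apart from a fit with the score as a covariate, where Neurl1a had a log2 fold change of 2.05 and was not called (edgeR adjusted p = 0.448).

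Of 16 other tip cell genes, 5 fell and none rose, with a median log2 fold change of -0.46. There were 3 calls without mouse 21, 27 or 7. The 3 with the smallest p were Kcne3, a potassium channel subunit, at -5.0 (SE 0.46, edgeR adjusted p = 0.00331), Trp53i11 at -1.94 (SE 0.18, edgeR adjusted p = 0.00331) and Nid2, a basement membrane protein, at -1.44 (SE 0.13, edgeR adjusted p = 0.00331). Kcne3 thus fell about as far as Esm1 in the main fit, from 2.96 to 8.22 CPM in control to 0.131 to 0.195 CPM in cabo tumors. Over the other settings the log2 fold change of Kcne3 ran from -5.02 to -3.89 and that of Esm1 from -5.47 to -5.28. Of 10 arterial genes edgeR called 0, at a median of 0.01, with 2 at an unadjusted p under 0.05 and 1 called by DESeq2, and 2 of 8 venous genes rose. Those were Ackr1, a chemokine-binding protein of venules, at 3.20 (SE 0.35, edgeR adjusted p = 0.00718) and Selp, an adhesion protein, at 1.34 (SE 0.24, edgeR adjusted p = 0.0417). Of 12 pericyte and smooth muscle genes, Kcnj8 fell by 2.32 and Mcam by 1.57 on the log2 scale, at edgeR adjusted p = 0.0125 and 0.032. The list as a whole did not shift in this way, as 8 genes were negative and 4 positive around a median of -0.12. Its mean log2 CPM overlapped between the groups, at 2.54 to 3.55 in control and 2.8 to 3.39 in cabo tumors. With the muscle score as a covariate, no gene of any kind was called in this comparison, and the log2 fold changes of Dll4, Esm1 and Hey1 were -3.17 (SE 0.41), -5.47 (SE 0.86) and -2.25 (SE 0.63). In that fit those of Notch4 and Aplnr were -0.68 and 1.32, that of Jag1 was 0.01 and that of Notch1 turned to -0.31 (SE 0.33).

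**Figure D3:**
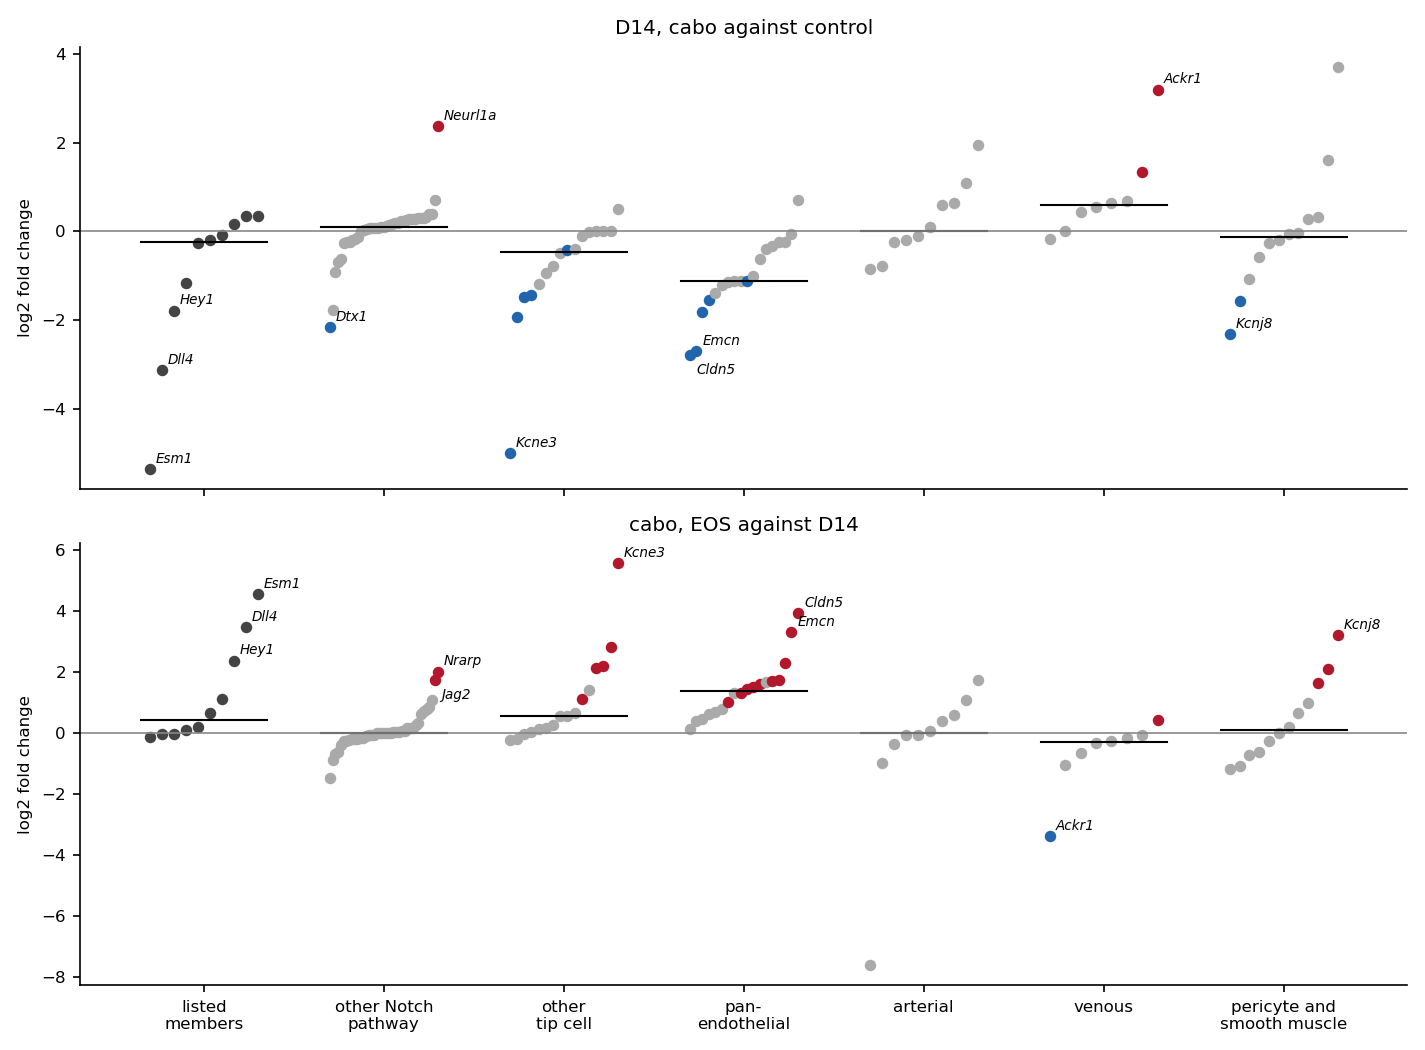
Log2 fold changes of single genes by list, for day 14 cabo against control (top) and for cabo tumors at EOS against day 14 (bottom); grey points were not called, blue points were called lower and red points higher at an edgeR adjusted p under 0.05, dark grey points are the 10 members, whose calls are not marked because they were chosen on these tumors, and black bars are medians. The lowest arterial point of the bottom panel is Bmx, which had no counts in the EOS cabo tumors, so its position depends on the prior count. The pan-endothelial median is -1.12 in the top panel and 1.39 in the bottom panel.

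The D14 IL-27+cabo tumors showed the same 3 members below control. Dll4 was at 0.899, 1.29 and 0.873 CPM in mice 20, 22 and 24, a log2 fold change of -3.59 (SE 0.30) against the control tumors, 12.1-fold lower. Esm1 was at 0.281, 0.379 and 0.225 CPM on 15 to 28 counts per tumor, a log2 fold change of -4.91 (SE 0.36), and Hey1 was at 1.29, 0.664 and 0.606 CPM, a log2 fold change of -1.83 (SE 0.44). None of these values overlapped the control tumors, which are the same 3 tumors that the cabo group was set against.

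Mouse 20 differed from its group in other members. Its tumor had 7.96 CPM of Notch1, where mice 22 and 24 had 34.6 and 31.0 CPM, and 24.6 CPM of Hes1, where they had 6.32 and 7.65 CPM. Hes1 had a log2 fold change of 0.42 (SE 0.55) against control with this tumor and of -0.51 without it. Over the remaining members the log2 fold changes ran from -1.10 for Heyl to -0.04 for Aplnr.

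Here 2 members were called, both lower, beside 0.064% of 18750 genes called in either direction and 0.0427% called lower. The 3 members with no overlap stood beside 7.58% of genes lower with no overlap, and again nothing is read from these counts. The median was -0.53 over the members and 0.049 over all genes. Of 39 other Notch pathway genes tested edgeR called 0, with 3 at an unadjusted p under 0.05 and 2 called by DESeq2. Of the other tip cell genes, Kcne3 fell by 5.48 on the log2 scale (SE 0.55, edgeR adjusted p = 0.0406). Without mouse 20 there were 3 calls on that list and 5 on the pan-endothelial list, where the main comparison made 0, 10 genes had an unadjusted p under 0.05 and DESeq2 called 5. Leaving out any other tumor of the 6 ended the Kcne3 call, and the member calls too. The pan-endothelial mean was 2.79 ± 0.08 (SD, n = 3), against 3.79 ± 0.32 in control, and the exact two-sided permutation test gave p = 0.1, its minimum here. Dll4 minus this mean was -2.97 to -2.31.

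Between D14 IL-27+cabo and cabo tumors, 9 of the 10 members overlapped, and Notch1 was lower without overlap, beside 7.01% of all genes. The log2 differences ran from -0.59 for Notch1 to 0.62 for Hes1, both of which rested on mouse 20, and were -0.47 (95% interval -1.15 to 0.22) for Dll4, 0.45 (-0.97 to 1.86) for Esm1 and -0.04 (-1.0 to 0.91) for Hey1. No member was called, beside 0.0% of 18662 genes by edgeR. Of these genes, 359 had an unadjusted p under 0.05, and DESeq2 called 3. Against D14 IL-27 tumors, the IL-27+cabo tumors had log2 differences of -3.47 (SE 0.36) for Dll4, -4.70 (SE 0.53) for Esm1 and -2.01 (SE 0.51) for Hey1. Apln was also lower without overlap, at 48.6 to 73.0 CPM against 84.9 to 106.1 CPM, a log2 difference of -0.67 (SE 0.25). These 4 members without overlap stood beside 5.7% of all genes that were lower in this way. No member was called there, beside 0.0% of 18570 genes by edgeR, where 4 members and 900 genes had an unadjusted p under 0.05 and DESeq2 called 119 genes and 3 members. Since the day 14 IL-27+cabo tumors were used in choosing the members, nothing is read from the member counts in either comparison.

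With IL-27 alone on day 14, the 10 genes overlapped their levels in the control tumors. These are the control tumors used in choosing the genes, so the values carry no test. Dll4 was at 9.49, 12.7 and 11.3 CPM in mice 4, 6 and 8, Esm1 at 4.99, 11.9 and 5.88 CPM, and Hey1 at 3.32, 2.26 and 4.64 CPM. Heyl had the lowest log2 fold change, -1.31 (SE 0.80), with a single low tumor, mouse 8 at 0.216 CPM, and leaving out 1 tumor gave -2.23 to -0.79. That of Aplnr was -0.79 (SE 0.84), with -2.01 to -0.06 when 1 tumor was left out, and the highest was that of Hes1, at 0.40 (SE 0.23). For Dll4 the 95% interval of the log2 fold change was -0.51 to 0.23. By edgeR, 0.0% of 18519 genes were called, 511 had an unadjusted p under 0.05, and DESeq2 called 3.

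**Figure D4:**
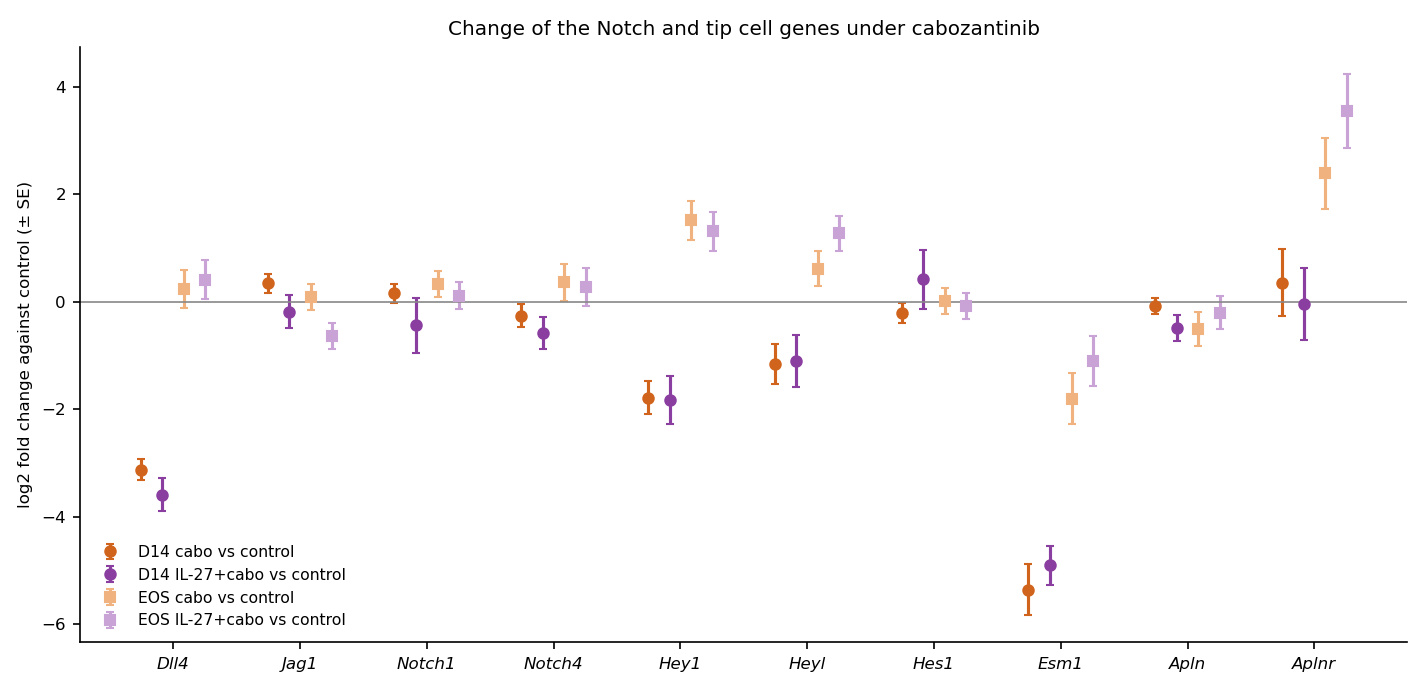
Fitted log2 fold change of each of the 10 genes with its standard error, for the cabo and IL-27+cabo groups against the control tumors of the same time, on day 14 and at EOS. Dll4 is at -3.13 and -3.59 in the day 14 cabo and IL-27+cabo groups and at 0.24 and 0.41 in the EOS groups of mice that had been given these treatments.

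At EOS, the low levels of Dll4, Esm1 and Hey1 seen on day 14 were not present in any of the 4 tumors of cabo-treated mice. Dosing with cabo had ended by then. Dll4 was at 8.73 and 17.7 CPM in the control tumors of mice 13 and 9 and at 17.99 and 13.39 CPM in the cabo tumors of mice 19 and 23. The IL-27+cabo tumors of mice 16 and 28 had 16.8 and 18.8 CPM of Dll4. The groups overlapped, and the log2 fold changes of Dll4 were 0.24 (95% interval -0.46 to 0.95, edgeR adjusted p = 0.882) for cabo and 0.41 (SE 0.36, edgeR adjusted p = 0.649) for IL-27+cabo. Either sign depended on a single control tumor, since without mouse 13 they were -0.19 and -0.01. All EOS comparisons share the 2 control tumors. The muscle score given above also separated the EOS tumors of cabo-treated mice from the others, and its part in the members' values at EOS was not tested.

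Hey1 and Aplnr were higher and Esm1 lower in every EOS tumor of mice that had been given cabo alone than in both controls. Hey1 was at 1.49 and 1.75 CPM in control tumors and at 4.34 and 4.95 CPM in cabo tumors, a log2 fold change of 1.52 (SE 0.37, edgeR adjusted p = 0.404). Aplnr was at 1.47 and 2.85 CPM in control and at 14.6 and 8.21 CPM in cabo tumors, a log2 fold change of 2.39 (SE 0.66, edgeR adjusted p = 0.472). Esm1 was at 9.03 and 26.7 CPM in control and at 5.31 and 4.99 CPM in cabo tumors, a log2 fold change of -1.80 (SE 0.48, edgeR adjusted p = 0.45), and the high control tumor was mouse 9, without which the value was -0.80. Heyl was at 3.10 and 1.95 CPM in control and 3.798 and 3.963 CPM in cabo tumors (log2 fold change 0.62, edgeR adjusted p = 0.634).

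None of these passed edgeR's test after adjustment. Hey1, Esm1 and Aplnr had unadjusted p values of 0.00371, 0.00609 and 0.00738 in the edgeR fit, and DESeq2 called all 3, at adjusted p of 0.0197, 0.00504 and 0.00205. By edgeR 0.0% of 20026 genes were called, 1783 had an unadjusted p under 0.05, and DESeq2 called 160 higher and 82 lower. Of the members, 6 did not overlap between the groups, 5 of them higher, beside 43.0% of all genes. The median was 0.29 over the members and -0.009 over all genes.

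In the EOS IL-27+cabo tumors Aplnr had the largest difference from control. It was at 10.2 and 41.4 CPM, with the high value in mouse 28, and the log2 fold change was 3.55 (SE 0.69, edgeR adjusted p = 0.178), or 2.24 without that tumor. Heyl was at 5.834 and 6.498 CPM, above both controls, with a log2 fold change of 1.28 (SE 0.33, edgeR adjusted p = 0.199). Hey1 was at 3.66 and 4.44 CPM, also above both controls, with one of 1.31 (SE 0.37, edgeR adjusted p = 0.21).

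Jag1 was at 17.1 and 30.8 CPM, below the 38.2 and 35.4 CPM of the controls, with a log2 fold change of -0.64 (SE 0.24, edgeR adjusted p = 0.305), or -0.28 without mouse 16. Esm1, at 9.85 and 6.89 CPM, overlapped the controls and had a log2 fold change of -1.11 (SE 0.47, edgeR adjusted p = 0.345), which was -0.11 without the high control of mouse 9. By edgeR 0.0% of 20026 genes were called, with 5 members and 2835 genes at an unadjusted p under 0.05. DESeq2 called 441 genes higher and 351 lower, among them Hey1, Heyl and Aplnr at adjusted p of 0.03, 0.0155 and 2.35e-08. Of the members 4 did not overlap, 3 of them higher, beside 42.2% of all genes, and their median was 0.20 against -0.003 over all genes.

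The endothelial markers at EOS lay on the higher side in tumors of cabo-treated mice. All 18 had positive log2 fold changes with cabo and 17 of 18 with IL-27+cabo, at medians of 0.61 and 0.71. By edgeR 0 were called in either comparison, with 6 and 10 at an unadjusted p under 0.05 and 1 and 4 called by DESeq2. Dll4 minus the pan-endothelial mean was -0.27 and 0.28 in control, -0.34 and -0.23 in cabo, and -0.39 and -0.04 in IL-27+cabo tumors. Esm1 minus this mean was -0.22 and 0.87 in control, -1.99 and -1.76 in cabo, and -1.83 and -0.81 in IL-27+cabo tumors, and so stayed below control relative to the endothelial markers. Of 10 hypoxia genes, all had negative log2 fold changes in both comparisons, at medians of -0.54 and -1.33. Among them edgeR called 0, 0 and 5 had an unadjusted p under 0.05, and DESeq2 called 0 and 3. Their mean log2 CPM was 7.01 and 8.36 in the control tumors of mice 13 and 9. It was 7.01 and 7.5 in cabo tumors and 6.98 and 6.26 in IL-27+cabo tumors. The lower cabo level thus rested on the high control of mouse 9, and the IL-27+cabo tumor of mouse 16 was close to mouse 13. Of the other Notch pathway genes, edgeR called 0 of 40 in either comparison, at medians of 0.16 and -0.03, with 7 at an unadjusted p under 0.05 in each and 0 and 2 called by DESeq2.

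With IL-27 alone at EOS, Dll4 was at 6.87 and 10.2 CPM and Esm1 at 11.55 and 9.147 CPM, and both overlapped the controls. Their log2 fold changes were -0.64 (SE 0.36) and -0.80 (SE 0.47), at an edgeR adjusted p of 1.0 for each. Without the high control of mouse 9, they were -0.03 and 0.19. By edgeR 0.0% of 20026 genes were called, no member and 651 genes had an unadjusted p under 0.05, and DESeq2 called 12 genes higher and 14 lower, none of them a member.

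Set against day 14 within the same group, the cabo tumors at EOS had more Dll4, Esm1 and Hey1. The log2 differences, EOS minus day 14, were 3.47 (SE 0.23) for Dll4, 4.56 (SE 0.55) for Esm1 and 2.38 (SE 0.31) for Hey1, and 1.13 for Heyl and 0.67 for Notch4. These 5 genes and Notch1 did not overlap between the times, beside 16.3% of all genes that were higher without overlap, while Jag1, Hes1, Apln and Aplnr did. Of the members 3 were called, all higher, beside 2.09% of 19144 genes called in either direction and 0.945% called higher, from which nothing is read because the day 14 tumors chose the members. Without mouse 21 or 23 there was 1 member call. Their median was 0.43 against 0.009 over all genes.

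Genes of the other lists, which were also drawn up with earlier results of these data known, moved in the same comparison. Of 18 pan-endothelial markers 10 rose and none fell, at a median of 1.39, with Cldn5 at 3.94 (SE 0.23, edgeR adjusted p = 0.00181) and Emcn at 3.31 (SE 0.22, edgeR adjusted p = 0.00189). Of 16 other tip cell genes 5 rose, at a median of 0.57, and Kcne3 was at 5.57 (SE 0.25, edgeR adjusted p = 0.00141) and Nid2 at 2.20 (SE 0.09, edgeR adjusted p = 0.00138). Of 40 other Notch pathway genes 2 rose, Jag2, a Notch ligand, at 1.74 (SE 0.26, edgeR adjusted p = 0.0294) and Nrarp, a Notch target that limits the signal, at 2.02 (SE 0.36, edgeR adjusted p = 0.048), with a median of 0.02. Without mouse 21, 27 or 23 the Notch calls were 0. Without mouse 21 or 23 there were 3 tip cell calls, and the pan-endothelial calls were 3 without mouse 21, 5 without 27, 6 without 19 and 4 without 23. Nrarp was at 2.72 to 5.49 CPM in D14 control, 0.772 to 1.74 CPM in D14 cabo and 4.51 to 4.75 CPM in EOS cabo tumors, an order like that of Hey1. Of the venous genes, Ackr1 fell by 3.36 on the log2 scale (SE 0.59, edgeR adjusted p = 0.0469) and Ephb4, an ephrin receptor of veins, rose by 0.42 (SE 0.07, edgeR adjusted p = 0.0335).

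In the IL-27+cabo group the EOS tumors also had more Dll4, Esm1 and Hey1 than the day 14 tumors, by 4.10 (SE 0.38), 4.79 (SE 0.48) and 2.20 (SE 0.54) on the log2 scale, and Heyl, Notch4 and Apln were higher by 1.73, 0.90 and 0.58. These 6 genes did not overlap between the times, beside 11.5% of all genes that were higher without overlap. Aplnr overlapped between the times, at a log2 difference of 1.66 that was 0.36 without mouse 28. No member was called, beside 0.0% of 19365 genes by edgeR, while 6 members and 742 genes had an unadjusted p under 0.05 and DESeq2 called 4 members and 72 genes higher and 262 lower. The day 14 tumors of this group were used in choosing the members, so nothing is read from the member counts. In the control group the corresponding log2 differences were 0.09 for Dll4, 0.99 for Esm1, -0.93 for Hey1 and -1.94 (SE 0.81) for Aplnr, and no member was called beside 0.104% of 19292 genes. Without mouse 9 those of Dll4 and Esm1 were -0.51 and 0.01, and without mouse 3 that of Aplnr was -1.20. In the IL-27 group, where the members were tested, Aplnr was at -1.49 (SE 0.78, edgeR adjusted p = 0.818), or -0.28 without mouse 8 of day 14, and Esm1 at 0.45. There, no member was called beside 0.0% of 19078 genes, no member and 963 genes had an unadjusted p under 0.05, and DESeq2 called 30 genes higher and 81 lower.

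The difference between cabo and control tumors at EOS, after dosing, minus that on day 14 was fitted over all 20 intratibial tumors. It was 3.35 (SE 0.44) for Dll4, 3.54 (SE 0.75) for Esm1 and 3.29 (SE 0.60) for Hey1 on the log2 scale. Dll4 was the 1 member called, beside 0.0788% of 21563 genes. For IL-27+cabo the same difference was 4.03 (SE 0.45) for Dll4, 3.82 for Esm1 and 3.18 for Hey1, and again Dll4 was the 1 member called, beside 0.0788% of 21563 genes. Both rest on the day 14 tumors that chose the members, and on the same control tumors. Without the EOS control tumor of mouse 9 the differences of Dll4 and Esm1 were 3.97 and 4.55 under cabo and 4.63 and 4.80 under IL-27+cabo, without that of mouse 13 they were 2.95 and 2.98 and then 3.60 and 3.23, and without mouse 27 that of Esm1 under cabo was 4.32.

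Ordered by mean level over the 8 intratibial groups, Dll4 ran from 17.8 CPM in EOS IL-27+cabo tumors down to 8.56 CPM in EOS IL-27 tumors with each group overlapping the next, and then dropped without overlap to 1.44 CPM in D14 cabo and 1.02 CPM in D14 IL-27+cabo tumors. Esm1 ran from 17.9 CPM in EOS control to 5.15 CPM in EOS cabo tumors, again with overlapping neighbours, before a gap to 0.295 and 0.221 CPM in the D14 IL-27+cabo and cabo tumors. Hey1 had 2 gaps between neighbours, between D14 control at 3.08 CPM and EOS IL-27 at 2.10 CPM, and between EOS control at 1.62 CPM and D14 cabo at 0.905 CPM. The first did not part all tumors above it from those below. Mouse 6 of the higher-ranked D14 IL-27 group was at 2.26 CPM and mouse 12 of EOS IL-27 at 2.77 CPM. Notch4 showed no gap between neighbouring groups, from 35.4 CPM in EOS cabo to 17.7 CPM in D14 IL-27+cabo tumors.

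Across the 20 intratibial tumors, which include the groups the choice of genes used, the log2 levels of Esm1 and Hey1 followed that of Dll4 with Pearson's r of 0.94 and 0.86. Those of Notch4, Apln, Heyl and Notch1 had r of 0.62, 0.55, 0.32 and 0.27, and those of Jag1, Hes1 and Aplnr 0.05, -0.08 and -0.14. The 10 other genes most like Dll4 by this measure were 4930502E18Rik, Kcne3, Ednrb, Ephb1, Apold1, Robo1, Flt4, Afap1l1, Sema3f and Mest, with r from 0.964 to 0.952. Ephb1, a receptor tyrosine kinase of the ephrin system, was at 3.09 ± 0.368 CPM (SD, n = 3) in D14 control, 0.242 ± 0.0595 CPM in D14 cabo and 3.22 ± 0.201 CPM (SD, n = 2) in EOS cabo tumors. Robo1, a receptor for Slit guidance proteins, was at 4.76 ± 1.67, 0.798 ± 0.150 and 10.7 ± 1.71 CPM in the same groups.

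The other members had other nearest genes. The remaining members had other nearest genes. Tie1, an endothelial receptor, was most like Hey1 (0.923), and Cdh5, the endothelial cadherin, most like Notch4 (0.882). Notch1 was followed most closely by Nav3 (0.956) and Shank3 (0.955), Hes1 by Vti1b (0.895), Apln by Smad1 (0.821), and Jag1 by Kcnh5 (0.864). Aplnr was followed by Nxpe1-ps (0.921). These values are descriptions over tumors that share groups and normalization.

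In subcutaneous tumors given IL-27, Aplnr was higher and Notch4 lower than in control tumors, but the sign of Notch4 turned in a fit that removed trends with GC content and length. Notch4 (ENSMUSG00000015468, chr17:34564268-34588503) was at 22.3 and 25.8 CPM in the control tumors and at 3.98 and 8.50 CPM in the IL-27 tumors, a log2 fold change of -1.94 (SE 0.47, edgeR adjusted p = 0.0297). Aplnr (ENSMUSG00000044338, chr2:85136225-85139923) was at 26.0 and 39.4 CPM in control and at 75.2 and 177.1 CPM in IL-27 tumors, a log2 fold change of 1.95 (SE 0.49, edgeR adjusted p = 0.0325). Both genes were without overlap between the groups, as were 7 of the 10 members and 66.9% of all genes. Once the GC and length trend of each library was taken out, the log2 fold change of Notch4 turned to 0.71 (edgeR adjusted p = 0.349) and that of Aplnr had an edgeR adjusted p of 0.0554. Leaving out control tumor 1 also ended both calls, at edgeR adjusted p of 0.109 for Notch4 and 0.177 for Aplnr, as did leaving out control tumor 2, at 0.0794 and 0.0681. Without IL-27 tumor 1 Notch4 was at 0.152, and without IL-27 tumor 2 Aplnr was at 0.237, with a log2 fold change of 1.19.

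The other 8 members did not pass edgeR's test, while DESeq2 called 4 members, namely Notch4, Aplnr, Dll4 and Esm1, the last pair at adjusted p of 0.0362 and 0.0134. Dll4 was at 14.8 and 9.75 CPM in control and at 2.60 and 6.22 CPM in IL-27 tumors (log2 fold change -1.48, SE 0.55, edgeR adjusted p = 0.104), and Notch1 had a log2 fold change of -1.02 (edgeR adjusted p = 0.12). Both were lower with no overlap, and with the GC and length trend removed they were 0.12 and 0.86. Esm1 was at 9.38 and 9.34 CPM in control and at 10.1 and 58.4 CPM in IL-27 tumors, so its log2 fold change of 1.87 (SE 0.75, edgeR adjusted p = 0.125) came from a single tumor. Hey1, at 4.14 and 4.19 CPM in control and at 4.62 and 11.5 CPM in IL-27 tumors, had a log2 fold change of 0.96 (edgeR adjusted p = 0.257), which was 0.14 without IL-27 tumor 2. Apln had one of 0.87 (edgeR adjusted p = 0.153), and those of Heyl, Hes1 and Jag1 ran from -0.22 to 0.28.

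Of the 10 members, 2 were called, 1 in each direction, beside 20% of 19360 genes in either direction, 3.52% higher and 16.5% lower, so the members' share equalled the background. DESeq2 called 2089 genes higher and 3879 lower, against 682 and 3198 by edgeR, and 387 and 1818 were called with the GC and length trend removed. The members' median was 0.14 and that of all genes 0.038. Of 39 other Notch pathway genes tested, 12 fell and none rose, at a median of -0.70, 5 being called without control tumor 1 and 7 with the GC and length trend removed. They included Notch3, a receptor of mural cells, at -1.91 (SE 0.44, edgeR adjusted p = 0.0245) and Jag2 at -3.22 (SE 0.75, edgeR adjusted p = 0.0247). Of 18 pan-endothelial markers 4 fell, at a median of -0.16, with 8 positive and 10 negative. The calls were 13 by DESeq2, 0 with the GC and length trend removed, 2 without control tumor 1 and 7 without IL-27 tumor 2. The pan-endothelial mean was 4.23 and 4.30 in control and 3.17 and 4.33 in IL-27 tumors. Skeletal muscle genes were higher in the IL-27 tumors for 13 of 14 genes by edgeR's test, with a muscle score of -2.81 and -0.69 in control and of 5.52 and 4.23 in IL-27 tumors, and the tumor line's Krt8 and Hras were at 20.8 to 67.3 and 19.2 to 46.3 CPM in control and at 2.04 to 4.24 and 2.06 to 2.33 CPM in IL-27 tumors. Their part in the members' values was not tested.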

How the data were processed

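Stranded poly(A) libraries were made from total RNA of 24 tumors. The file the authors deposited holds raw counts, whole numbers for each Ensembl gene. The submitters' processing notes name FastQC, HISAT2, StringTie and DESeq2 and the build GRCh38, although the identifiers are those of mouse genes. The counting program and its strand setting are not given in the sources used here. Between 30.4% and 35.5% of low values per library were multiples of 4, so 1 fragment may have added more than 1 count.

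Identifiers were joined to GENCODE M21 on GRCm38, which named 55141 of 55401 rows. The tests were those of edgeR 4.0.16 in R 4.3.3 (filterByExpr, TMM, quasi-likelihood F test, two-sided) with Benjamini-Hochberg adjustment over all genes tested and a threshold of 0.05. All 10 members passed the filter in every comparison. Each fit held the 2 groups it compared. The 4 EOS groups were fitted together, and the differences between times came from a fit of all 20 intratibial tumors. Log2 CPM used a prior count of 2, RPKM the GENCODE exon length, and scores were means of log2 CPM. Alternatives were DESeq2 1.42.0, RLE size factors, no filter, counts divided by 4, GC and length trends removed by splines of 5 degrees of freedom, a single fit of all intratibial groups, a covariate for the muscle score on day 14, the replicate block and leaving out each tumor.

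The members and gene lists were chosen with earlier results of these data known. Outside the members, each list was named by at most 3 genes with the smallest p per direction among those called, or 2 where none was called, with other markers named where their level moved with a member's. Genes most like a member were the 10 with the highest Pearson's r for Dll4 and the 2 highest for the others. The pipeline was tested on simulated data. Figures were drawn with matplotlib 3.10.9. Some items are not reported here.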

Additional observations from a re-analysis of the deposited data

Results flagged for a closer look

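The difference between tumors of cabo-treated and control mice changed between day 14 and EOS, when dosing had ended. This was in a fit over all 20 intratibial tumors with an interaction of treatment and time, for 1 member and for 3 endothelial and tip cell genes named from the lists. Dll4 had a difference, EOS minus day 14, of 3.35 (SE 0.44) on the log2 scale under cabo and of 4.03 (SE 0.45) under IL-27+cabo. It was chosen on the day 14 tumors in this fit, so the values are a description. Emcn had differences of 3.6 (SE 0.44, edgeR adjusted p = 0.0017) and 3.14 (SE 0.43, edgeR adjusted p = 0.00573), and the IL-27+cabo call was lost without the control tumor of mouse 13. Kcne3 had differences of 5.25 (SE 0.87, edgeR adjusted p = 0.0313) and 5.03 (SE 0.88, edgeR adjusted p = 0.0439), and these calls were lost when most tumors were left out in turn. Kdr, the main VEGF receptor of endothelium, had a difference of 3.09 (SE 0.52, edgeR adjusted p = 0.0343) under IL-27+cabo, a call lost without any of 6 tumors. These genes were named from lists drawn up with earlier results of these data known, and the fit holds the same day 14 tumors, so their p values are not independent evidence. The 2 treatments share the control tumors.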

How the results depend on the processing

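Every member median and every member value given with a test was recomputed under each alternative that applied to its comparison, the muscle covariate on day 14 only. The replicate numbers of the subcutaneous tumors did not pair them, with a correlation of deviations between same-numbered tumors of 0.03 over 19360 genes. With the replicate block, 969 genes were higher and 3279 lower there. Removing the GC and length trend moved the subcutaneous member median from 0.14 to 0.83, and turned Dll4 to 0.12, Notch1 to 0.86 and Notch4 to 0.71. With the replicate block as well, these were 0.73, 0.0, 0.86 and 0.60. The cause was not tested. Without the filter, Notch4 and Aplnr lost their subcutaneous calls, at edgeR adjusted p of 0.0527 and 0.0631. The muscle covariate moved the D14 median from -0.53 to -0.75 under IL-27+cabo and from -0.23 to -0.52 under cabo. Under IL-27+cabo it moved Hey1 from -1.83 to -2.91, Aplnr from -0.04 to 1.27 and Hes1 from 0.42 to -0.61 against control, Hes1 from 0.62 to -0.38 against cabo, and Heyl from 0.19 to 3.1 and Jag1 from -0.55 to 0.41 against IL-27. Leaving out 1 tumor gave log2 ranges of -1.39 to 0.19 for Esm1 under EOS IL-27, of -0.19 to 0.85 and -0.01 to 1.02 for Dll4 under EOS cabo and IL-27+cabo, and of -0.26 to 0.0 and 0.50 to 1.47 for the median of EOS against day 14 under IL-27 and IL-27+cabo, where mouse 28 set the lowest value. Calls on D14 cabo against control numbered 223 higher and 129 lower by edgeR, 752 and 572 by DESeq2, 50 and 51 with no filter, 3 and 37 with all groups in one fit and 0 with the muscle covariate, where the members called were 0 in place of 3. Members called in D14 IL-27+cabo ranged from 0 to 3 when 1 tumor was left out, and in EOS against day 14 cabo they were 1 without mouse 21 or mouse 23, 1 with no filter and 5 by DESeq2. Of the lists, pan-endothelial calls in D14 cabo ranged from 0 to 12 over the settings, those of other tip cell genes from 0 to 7 and those of other Notch genes from 0 to 4. With 2 or 3 tumors per group, the SE of a member's log2 fold change against control on day 14 reached 0.84, for Aplnr under IL-27.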
